A study of Rattus norvegicus with 16 samples.

Results

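The 10 miRNAs described here are held at high levels by neurons and were followed in rat hippocampus 24 h after a lateral fluid percussion brain injury. They were rno-miR-124, rno-miR-9, rno-miR-9*, rno-miR-128, rno-miR-129, rno-miR-129*, rno-miR-137, rno-miR-138, rno-miR-153 and rno-miR-218 (written without the species prefix from here on), picked by name from the 350 rat miRNAs on the array. RNA of the whole hippocampus of male Sprague-Dawley rats was hybridised to 16 one-colour Agilent arrays, each sample on its own array. The injured groups were TBI (traumatic brain injury with no compound, 3 arrays) and TBI followed by 1 of 3 agents known here by code names, PMI (TBI+PMI, 3), JM6 (TBI+JM6, 3) or E33 (TBI+E33, 2). The groups without injury were naive rats, killed with no treatment (3), and rats given a sham injury (2). The labels give no genotype, and the doses of the compounds were not used here. The arrays lay on 2 slides of 8. Slide 1 held the TBI and naive arrays and TBI+PMI replicates 1 and 2, and slide 2 held the TBI+JM6, TBI+E33 and sham arrays and TBI+PMI replicate 3, so groups were compared only within a slide. TBI without a compound and sham never shared a slide. Nothing in the labels says whether the samples of a group came from separately handled animals, so p-values measure the spread between these samples, which may be technical.

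A miRNA is a short RNA that guides Argonaute proteins to messenger RNAs, mostly through its seed, the bases near its 5′ end that pair with the target, and lowers the output of those messages. miR-124 is the miRNA most typical of neurons and represses transcripts of non-neuronal cells, while miR-9 and miR-9*, the opposite arms of the same hairpins, act on the REST and CoREST repressor that keeps neuronal genes silent outside neurons. miR-128 limits neuronal excitability, miR-129 represses a potassium channel in dendrites, miR-137 and miR-153 act on synaptic vesicle release, miR-138 restrains the growth of dendritic spines, and miR-218 is hosted by the Slit axon guidance genes. In whole hippocampus, fewer neurons and less of a miRNA per neuron cannot be told apart.

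Mature sequences from RefSeq (rat build GRCr8) were matched through the array's probes for 9 of the 10 members, all but miR-124. The 9 had 9 different seeds. The 8 shown are those of the members that fall into the sets described below by how they varied across arrays, written 5′ to 3′ with the seed (bases 2 to 8) in capitals.
miR-128: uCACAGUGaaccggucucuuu
miR-129: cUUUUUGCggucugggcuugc
miR-129*: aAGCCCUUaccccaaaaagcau
miR-138: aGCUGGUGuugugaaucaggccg
miR-9: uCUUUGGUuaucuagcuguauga
miR-9*: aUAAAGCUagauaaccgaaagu
miR-137: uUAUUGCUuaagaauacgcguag
miR-218: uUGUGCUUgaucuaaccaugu

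miR-128 is encoded at 2 loci of GRCr8, at chr8:120963807-120963827 on the minus strand within the span of Arpp21 and at chr13:42251933-42251953 on the plus strand within that of R3hdm1. miR-129 lies at chr3:100657448-100657468 (minus strand) and chr4:58589716-58589736 (plus strand). miR-129* lies in the same chromosome 3 hairpin, at chr3:100657405-100657426. Both of its probes pair in full with this 22-base arm of Mir129-2, but only in part with the 19-base arm of Mir129-1. The arms are alike over those 19 bases, and how far the probes read the shorter one was not tested. miR-129 itself is identical at both loci. miR-138 lies at chr8:131178456-131178478 (plus strand) and at chr19:10680184-10680206 (minus strand), the second within the span of Slc12a3. miR-9 and miR-9* share 3 hairpins, 1 on chromosome 1 and 2 on chromosome 2, whose products the probes cannot tell apart. Of the others, miR-218 lies within the spans of Slit3 and Slit2, miR-153 within that of Ptprn2, and miR-137 at a single locus on chromosome 2.

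Each member was read by 2 probes of 10 spots each. Those of the 9 matched members begin at bases 2 to 10 of the miRNA and run to its 3′ end. The pair for miR-128 is shown because miR-128 was the member with a called difference, and the capitals mark the bases that pair with the whole seed.
miR-128, 19-base probe: aaagagaccggttcactgt
miR-128, 20-base probe: aaagagaccggttCACTGTG
Of the 18 probes of the 9 matched members, 2 spanned the whole seed, 1 for miR-128 and 1 for miR-218. The miR-138 probes began at bases 9 and 10 of the miRNA and read no seed base.

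All 10 members were well above background on all 16 arrays at their brighter probe, and 0 spots were saturated. Of the 7000 spots an array, 2858 to 3823 were well above background on slide 1 and 3418 to 4153 on slide 2. Levels are given as scaled signal, the log2 of the background-subtracted signal over the array's 75th percentile, so that 0 marks that percentile, and a level is set only against levels of the same miRNA. The within-group standard deviations of the members ran from 0.11 (miR-9*) to 0.24 (miR-138) on this scale, with a median of 0.17, against a median of 0.14 over the 161 miRNAs that were well above background on every array. Of the 10 members, 2 had a spread below that median.

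**Figure D1:**
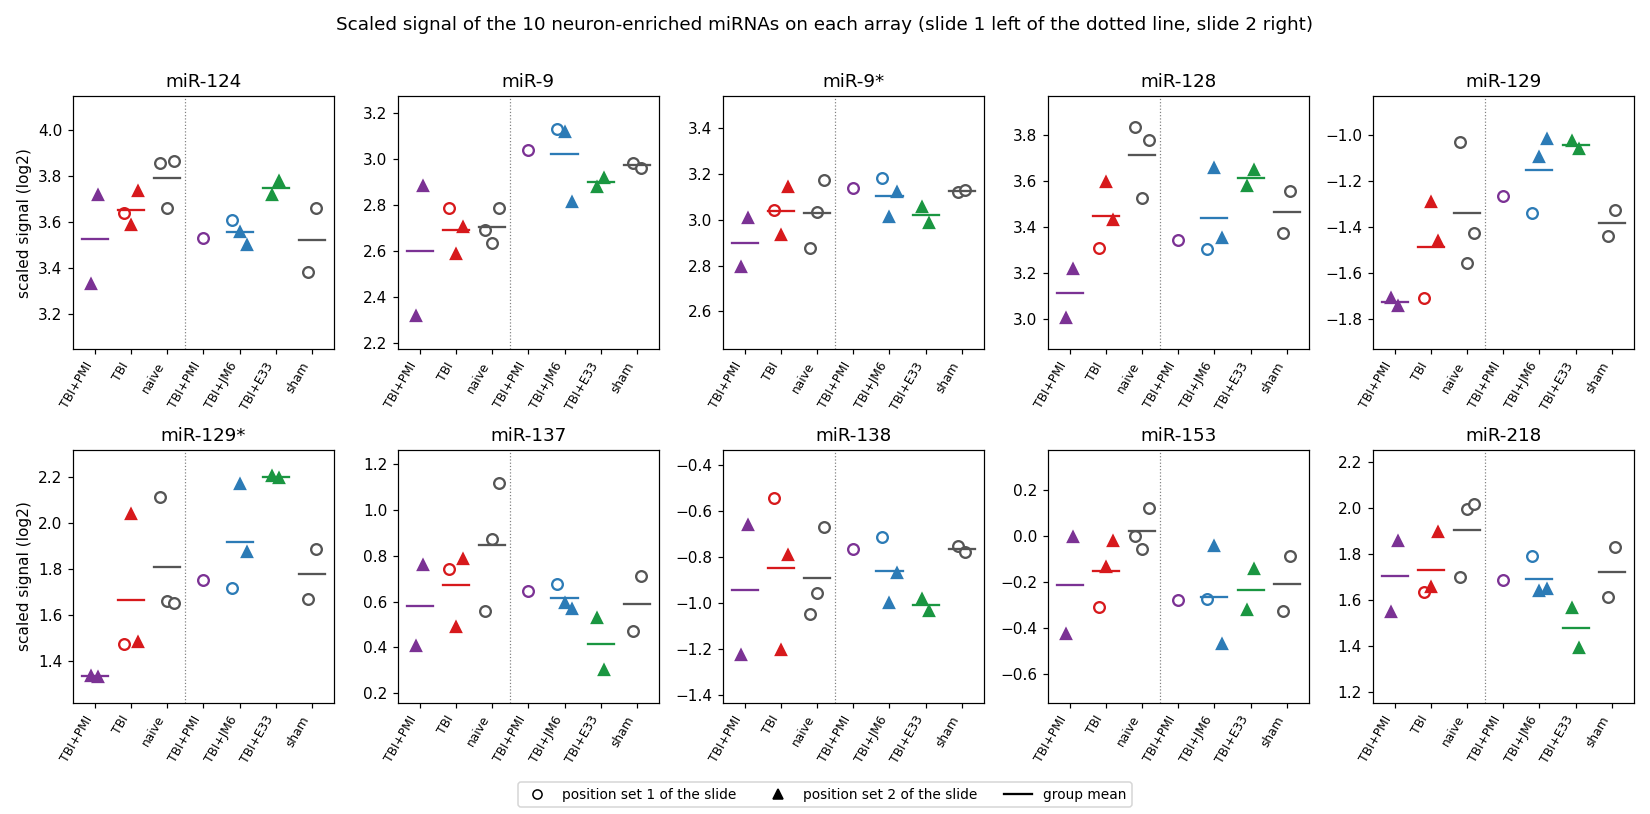
Scaled signal (log2) of each of the 10 miRNAs on each of the 16 arrays, with slide 1 left and slide 2 right of the dotted line and all panels drawn over the same span; open circles are arrays of the position set 1, filled triangles those of position set 2, and lines are means of groups with more than 1 array. The 2 TBI+PMI arrays of slide 1 lie below the 3 naive arrays for miR-128, miR-129 and miR-129*, and on slide 2 the triangles lie above the circles for miR-129 and below them for miR-138.

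The comparison of injured with naive hippocampus asked which miRNAs change 24 h after injury. No member passed the test. Their means were lower in TBI than in naive for 8 of 10, beside 56.5% of all 170 miRNAs tested. The median difference of the 10 was −0.15 on the log2 scale, against −0.05 over all 170. The members thus lay 0.10 below the general shift. By limma with Benjamini-Hochberg adjustment 0 of 10 members and 0 of the 170 miRNAs were called (0%). At an unadjusted p under 0.05 the counts were 0 of 10 and 38 of 170. The criterion of the study's methods joins a fold above 1.2 to p under 0.05, unadjusted. With the methods' t-test it was met by 9 higher and 16 lower miRNAs and by 0 members, and after adjustment by 0 miRNAs.

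miR-124 read 3.64, 3.59 and 3.73 on the TBI arrays, against 3.86, 3.66 and 3.86 on the naive arrays. The lowest naive array lay among the TBI arrays. The difference was −0.14 (95% interval −0.37 to 0.09, adjusted p = 0.459 by limma), an interval of −22.6% to 6.34% for the level in TBI.

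miR-128 gave the lowest difference of the 10. It read 3.31, 3.60 and 3.43 on the TBI arrays, against 3.84, 3.53 and 3.78 on the naive arrays, and the groups overlapped because TBI replicate 2 lay above naive replicate 2. The difference was −0.27 ± 0.12 (SE), with an adjusted p of 0.222 by limma.

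The 2 arms of the miR-9 hairpins differed by −0.01 (miR-9) and 0.01 (miR-9*) between TBI and naive, with intervals of −0.23 to 0.21 and −0.25 to 0.27. miR-138 also lay close to 0, at 0.04, but with the wide interval of −0.39 to 0.48. The other 5 members lay between −0.14 (miR-129*) and −0.18 (miR-137), with adjusted p from 0.399 to 0.724 by limma. The arrays of the groups overlapped for 10 of 10 members, while 28.2% of all miRNAs tested did not overlap.

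Neuron-enriched miRNAs that were not members gave the same count of calls. Of 17 listed, 13 could be tested, 0 passed and 9 had the lower mean in TBI, with a median of −0.28. Their summed scaled signal was 8.96 to 9.26 in TBI, against 10.2 to 10.8 in naive, so on this sum, which the brightest of them dominate, the groups did not overlap. Marker lists of other cells overlapped between the groups for 5 brain and blood cell types. The leukocyte and microglia list summed to 0.593 to 0.992 in TBI and 0.598 to 0.744 in naive. The oligodendrocyte list summed to 7.16 to 8.65 in TBI and 6.77 to 8.33 in naive, and the vessel list to 1.87 to 2.01 in TBI and 1.93 to 4.36 in naive. The red cell list and the choroid plexus list gave, in this order, 0.180 to 0.557 and 0.776 to 1.26 in TBI, against 0.105 to 0.457 and 0.704 to 2.84 in naive. Of the 11 miRNAs of these lists that were tested, 0 were called. Of 7 miRNAs typical of other organs, 2 were well above background on all 16 arrays and 3, miR-133a, miR-122 and miR-208, on 0. The 3 tested had the lower mean in TBI (median −0.32, 0 called), and the list summed to 0.190 to 0.198 in TBI and 0.218 to 0.277 in naive, with no overlap. The part of these cells in the members' differences was not tested.

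**Figure D2:**
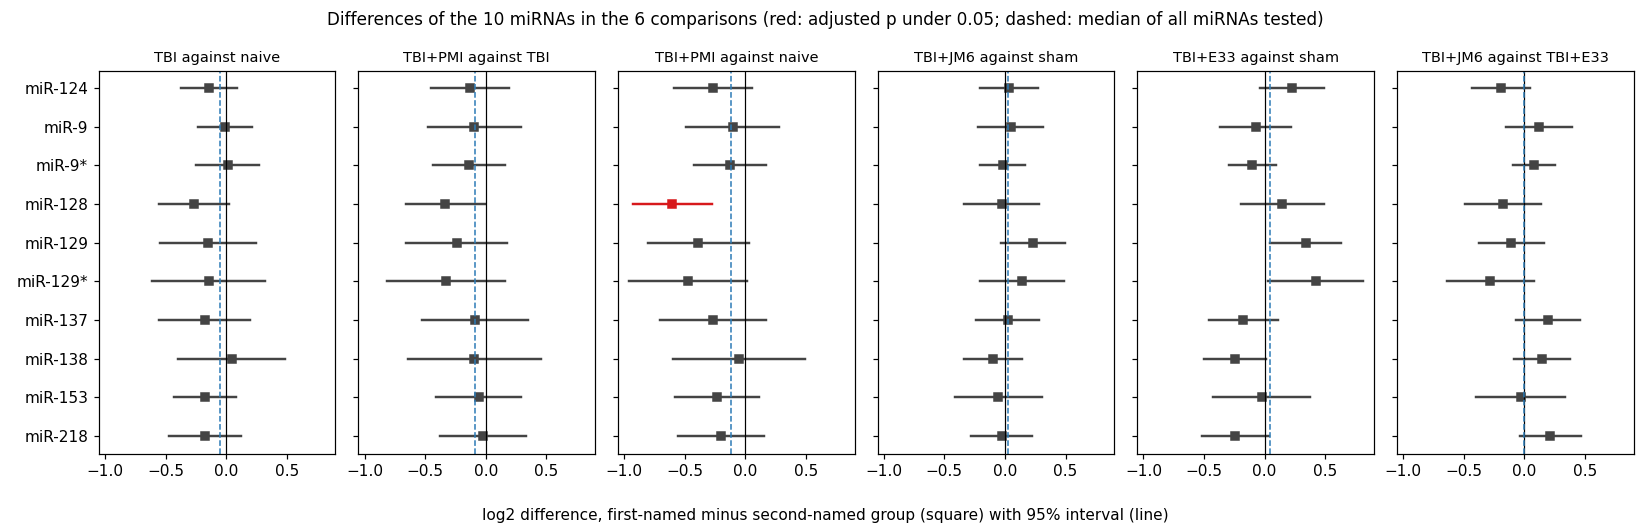
Log2 difference (square) with its 95% interval (line) for each of the 10 miRNAs in each of the 6 comparisons, as the first-named minus the second-named group; red marks an adjusted p under 0.05 and the dashed line the median of all miRNAs tested. The interval of miR-128 in TBI+PMI against naive, −0.93 to −0.28, is the red one.

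In injured rats given PMI, set against naive rats on the same slide, miR-128 was lower and passed the test. It read 3.00 and 3.22 on the TBI+PMI arrays, against 3.84, 3.53 and 3.78 on the naive arrays, with no overlap. The difference was −0.60 ± 0.14 (SE, 2 against 3 arrays), a change of level of −34.1%, with an adjusted p of 0.042 by limma. It was 1 of 10 members called, beside 15 of 178 miRNAs (8.43%), all of them lower. That direction turned with the scaling: with no scaling between arrays 7 miRNAs were called higher and 0 lower, in the authors' processed values it was 7 higher and 3 lower, and with normexp, quantile normalization, the percentile over all probes or summed signals 0 were called. The call was lost when any 1 of the 5 arrays was left out, with differences of −0.71 to −0.49 and adjusted p from 0.066 to 0.206, and it was kept in 4 of 19 alternative settings. Among these 4, both fits of all 16 arrays were the same model, since only TBI+PMI lay on both slides. The third TBI+PMI array, on slide 2, was not part of this comparison. It read 3.35 for miR-128, below the 3.37 and 3.56 of the 2 sham arrays of that slide.

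The hairpin partners miR-129 and miR-129* lay below all naive arrays as well. miR-129 read −1.71 and −1.74 on the TBI+PMI arrays, against −1.03, −1.55 and −1.42 on the naive arrays, and miR-129* read 1.34 and 1.33 against 2.11, 1.66 and 1.65. Their differences of −0.39 ± 0.18 and −0.47 ± 0.21 (SE) did not pass, with adjusted p of 0.191 and 0.177 by limma. Non-overlap was seen for 3 of 10 members and for 39.9% of all miRNAs tested.

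miR-124 read 3.33 and 3.72 on the TBI+PMI arrays, and the second of these lay among the naive values. Its difference was −0.27 (interval −0.59 to 0.05). All 10 members had the lower mean in TBI+PMI, with a median of −0.25, while the median of all miRNAs was −0.12 and 67.4% of them had the lower mean. Without TBI+PMI replicate 1 the members' median was −0.060, and with no scaling 0.030. The remaining 6 members ran from −0.05 (miR-138) to −0.27 (miR-137), with adjusted p from 0.354 to 0.913 by limma. TBI+PMI replicate 1 was the lower of the pair for 8 of 10 members, all but miR-129 and miR-129*.

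Of the other neuron-enriched miRNAs, 4 were called lower in TBI+PMI than in naive. They were miR-383 (−1.14 ± 0.19 SE, adjusted p = 0.035), miR-485 (−0.54 ± 0.11, adjusted p = 0.041), miR-434 (−0.50 ± 0.12, adjusted p = 0.043) and miR-127 (−0.48 ± 0.11, adjusted p = 0.042), all by limma. The last 3 belong to the imprinted Dlk1-Dio3 region. Of 14 tested, 12 had the lower mean, with a median of −0.41. The 4 calls did not hold in every setting. Among all miRNAs tested, 0 passed once either naive replicate 1 or 3 was dropped. The same count of 0 was found with the position set, described below, as a block. Dropping naive replicate 2 gave 2 calls over all miRNAs, a stricter filter 15 and an intensity trend 12. The choroid plexus and ependyma list summed to 1.44 and 8.17 in TBI+PMI, against 0.704 to 2.84 in naive, with 3 of 3 tested miRNAs at a higher mean and 0 called. Leukocyte and microglia miRNAs were higher in mean for 2 of 3 tested (median 0.94). miR-223 differed by 2.35 ± 1.03 and miR-142-3p by 0.94 ± 0.47 (SE). miR-150 went the other way, at −0.37 ± 0.11 (SE, adjusted p = 0.083 by limma). The list summed to 0.568 and 1.09 in TBI+PMI, against 0.598 to 0.744 in naive. Red cell miRNAs were higher in mean for 2 of 2 (median 0.70), vessel miRNAs lower for 3 of 3 (median −0.19), oligodendrocyte miRNAs higher for 2 of 3 (median 0.05) and those of other organs lower for 3 of 3 (median −0.26). None of the miRNAs of these lists was called. The part of these cells in the differences was not tested.

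Against TBI without a compound, TBI+PMI gave no called member. All 10 means were lower in TBI+PMI, as were 73.9% of all 176 miRNAs tested. The median of the 10 was −0.11, against −0.09 over all 176. Without TBI+PMI replicate 1 the members' median was 0.077, and with no scaling 0.27. By limma 0 of 10 members and 0 of the 176 (0%) were called, and 1 member and 12 miRNAs had an unadjusted p under 0.05. That member was miR-128, which read 3.00 and 3.22 in TBI+PMI against 3.31, 3.60 and 3.43 in TBI, a difference of −0.33 ± 0.14 (SE, adjusted p = 0.672). miR-129* differed by −0.33 ± 0.21 and miR-129 by −0.24 ± 0.18 (SE). These 3 did not overlap between the groups, 3 of 10 against 21.6% of all miRNAs tested. The interval for miR-124 was −0.45 to 0.19. The choroid plexus and ependyma list was higher in mean for 3 of 3 miRNAs in TBI+PMI (median 1.61, 0 called) and summed to 1.44 and 8.17 in TBI+PMI, against 0.776 to 1.26 in TBI, with no overlap. Its part in these differences was not tested. The medians of the other cell lists lay between −0.09 (oligodendrocytes) and 0.16 (red cells), and that of the other neuron-enriched miRNAs was −0.15, with 11 of 14 lower in mean and 0 called.

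In injured rats given JM6, set against sham rats, no member passed the test and no difference exceeded 0.23 in size. The median of the 10 was 0.00 and that of all 225 miRNAs tested 0.02, with 5 members at a higher and 5 at a lower mean. By limma 0 of 10 members were called, beside 12 of 225 miRNAs (5.33%), all higher. At an unadjusted p under 0.05 there were 0 members and 33 miRNAs. miR-124 read 3.61, 3.56 and 3.50 in TBI+JM6 and 3.38 and 3.66 in sham, so that the sham arrays enclosed all 3, and its interval was −0.21 to 0.28. miR-9* had the narrowest interval, −0.21 to 0.17. The largest difference was that of miR-129, at 0.23 ± 0.11 (SE, adjusted p = 0.408). The arrays overlapped for 10 of 10 members, whereas 31.1% of all miRNAs tested did not overlap.

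In injured rats given E33, set against sham rats, no member passed the test. The mean was higher for 4 members and lower for 6, and 41.6% of all miRNAs tested had the lower mean. miR-124, miR-128, miR-129 and miR-129* were higher on both TBI+E33 arrays than on both sham arrays, and miR-9, miR-9*, miR-138 and miR-218 were lower on both. By limma 0 of 10 members were called, beside 9 of 226 miRNAs (3.98%), 8 higher and 1 lower. At an unadjusted p under 0.05 there were 2 members and 46 miRNAs. The 8 of 10 members without overlap stand beside 61.1% of all miRNAs tested.

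miR-129* read 2.20 and 2.19 in TBI+E33, against 1.67 and 1.89 in sham, a difference of 0.42 ± 0.16 (SE, adjusted p = 0.210 by limma). miR-129 read −1.03 and −1.06 against −1.44 and −1.33, a difference of 0.34 ± 0.12 (SE, adjusted p = 0.195). In the other direction, miR-138 read −0.98 and −1.03 in TBI+E33, against −0.75 and −0.78 in sham, a difference of −0.24 ± 0.10 (SE, adjusted p = 0.269). miR-218 differed by −0.24 ± 0.11 and miR-124 by 0.23 ± 0.11 (SE). The median over the 10 was −0.05, against 0.04 over all miRNAs.

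TBI+JM6 and TBI+E33 were also compared with each other, with 0 of 10 members and 0 of 230 miRNAs (0%) called by limma. At an unadjusted p under 0.05 there were 0 members and 7 miRNAs. Differences ran from −0.28 (miR-129*) to 0.21 (miR-218), and 4 of 10 members did not overlap, against 12.2% of all miRNAs tested. They were miR-124 and miR-129*, lower in TBI+JM6, and miR-137 and miR-218, higher in TBI+JM6. For miR-124 the interval was −0.43 to 0.04, and for miR-129* it was −0.64 to 0.08, so differences of that size between the compounds were not excluded by 3 against 2 arrays. Leukocyte miRNAs were higher in both compound groups than in sham. Of 4 listed, miR-223 and miR-142-3p were called higher in each, and the list summed to 0.945 to 1.34 in TBI+JM6, 1.10 to 1.23 in TBI+E33 and 0.567 to 0.684 in sham. The oligodendrocyte list had the lower mean for 4 of 4 miRNAs in both, with 0 called. The choroid plexus and ependyma list summed to 0.869 to 1.05 in TBI+JM6 and 0.846 to 0.916 in TBI+E33, below the 1.38 and 5.99 of the sham arrays, with 3 of 3 tested miRNAs lower in mean in each and 0 called. The list of other organs was higher in mean for 3 of 3 miRNAs in TBI+E33 (sums of 0.209 and 0.211, against 0.160 and 0.176 in sham) and for 1 of 3 in TBI+JM6, with 0 called. The part of these cells in the members' differences was not tested. Of the other neuron-enriched miRNAs, 10 of 14 had the higher mean in TBI+JM6 than in sham (median 0.08) and 10 of 15 in TBI+E33 than in sham (median 0.22), with 0 called in either.

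Differences from the uninjured group were set against each other across slides in a fit of all 16 arrays, where compound, kind of control and slide change together. The difference TBI minus naive was set against TBI+JM6 minus sham and against TBI+E33 minus sham. In neither did a member pass, with the smallest adjusted p at 0.426 and 0.309 by limma. For miR-129* the differences were −0.14 for TBI minus naive and 0.42 for TBI+E33 minus sham, and they differed by −0.57 ± 0.28 (SE, adjusted p = 0.309).

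On slide 2 some of these values differed with the position of the array on the slide, which partly followed the groups. The file headers give each array a position, and 4 arrays of each slide have 1 as its first number (here position set 1) and 4 have 2 (position set 2). On slide 1 position set 1 held the 3 naive arrays and TBI replicate 1, and position set 2 TBI replicates 2 and 3 and both TBI+PMI arrays. On slide 2 position set 1 held both sham arrays, TBI+PMI replicate 3 and TBI+JM6 replicate 1, and position set 2 TBI+JM6 replicates 2 and 3 and both TBI+E33 arrays.

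On slide 2, miR-129 ranged from −1.09 to −1.02 in position set 2 and from −1.44 to −1.27 in position set 1, across the 2 groups of position set 2 and the 3 of position set 1. miR-138 ranged from −1.03 to −0.87 in position set 2 and from −0.78 to −0.71 in position set 1. miR-9* was the third member whose position sets did not overlap, at 2.99 to 3.12 in position set 2 and 3.12 to 3.18 in position set 1, apart by less than the second decimal shows. These 3 of 10 members stand beside 19.0% of the 195 miRNAs well above background on all of slide 2. Within TBI+JM6, replicate 1 in position set 1 read −1.34 for miR-129 and −0.71 for miR-138, near the sham arrays. Replicates 2 and 3 in position set 2 read −1.09 and −1.02 for miR-129, near the TBI+E33 arrays, and both lay below every array of position set 1 for miR-138. On slide 1 the position sets overlapped for 10 of 10 members, beside 8.07% of 161 miRNAs that did not overlap.

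With the position set as a block, a fit that TBI+JM6 links across the position sets of slide 2, the differences of TBI+E33 against sham became 0.06 ± 0.12 for miR-129, 0.12 ± 0.21 for miR-129* and −0.02 ± 0.12 (SE) for miR-138. That of miR-124 became 0.31 ± 0.18. On slide 1 the block is linked by TBI, and miR-128 in TBI+PMI against naive became −0.80 ± 0.23 (SE), with an adjusted p of 0.162 by limma and 0 members called. Within position set 1 of slide 1, TBI replicate 1 read 3.31 for miR-128 and the 3 naive arrays 3.53 to 3.84. Within position set 2, TBI+PMI averaged 3.11 and TBI 3.51 over 2 arrays each. Position set and group cannot be told apart for TBI+PMI against naive or TBI+E33 against sham without such a link. The position set itself was called for 0 of the 225 miRNAs tested for TBI+JM6 against sham, and 19 had an unadjusted p under 0.05. In the fit of TBI against naive it was called for 2 of 170 and 0 members.

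**Figure D3:**
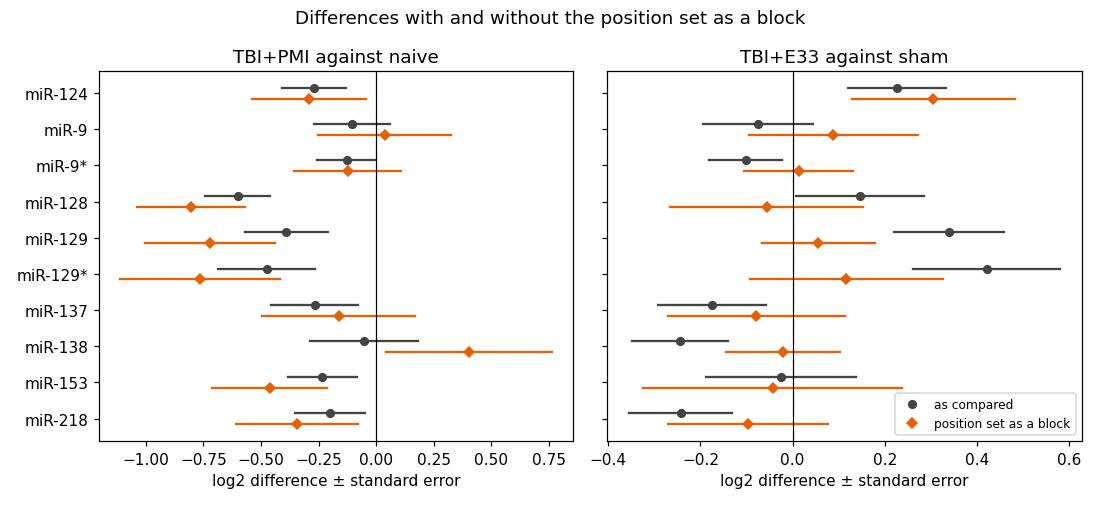
Log2 difference ± standard error of the 10 miRNAs in TBI+PMI against naive (left) and TBI+E33 against sham (right), as compared within the slide (grey circles) and with the position set as a block (orange diamonds). In TBI+E33 against sham the block moves miR-129, miR-129* and miR-138 to within 1 standard error of 0, and in TBI+PMI against naive miR-128, miR-129 and miR-129* move further below 0, to −0.80, −0.72 and −0.76.

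The members did not vary as 1 group across arrays. With slide means removed, Pearson's r over the 16 arrays had a median of 0.38 over the 45 pairs of members and ran from −0.57 (miR-129* and miR-138) to 0.90 (miR-137 and miR-218). These values are descriptions, since arrays share slides and groups. miR-128, miR-129 and miR-129* varied together, with r of 0.75 to 0.88 among them. miR-9, miR-9*, miR-137, miR-138 and miR-218 formed another set, with r of 0.49 to 0.90. Between the sets r ran from −0.57 to 0.25, below 0 in 11 of 15 pairs. By slide it ran from −0.44 to 0.42 on slide 1 and from −0.96 to −0.09 on slide 2. miR-124 and miR-153 lay between, each with r of 0.71 to 0.74 to miR-128 and to each other. The slides differed for miR-124. Its r to the members of the miR-9 set was 0.52 to 0.80 on slide 1 and −0.55 to −0.17 on slide 2. The sets were drawn after their values were seen.

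The arms of a hairpin were alike to different degrees. miR-129 and miR-129* had r = 0.88 over the 16 arrays, 0.92 on slide 1 and 0.80 on slide 2. miR-9 and miR-9* had r = 0.56, 0.69 on slide 1 and 0.20 on slide 2. Of the bases of miR-129, miR-128 and miR-129*, 57.1%, 47.6% and 45.5% were G or C. In the other set the share was 31.8% to 38.1% for miR-9*, miR-9, miR-137 and miR-218, and 56.5% for miR-138.

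**Figure D4:**
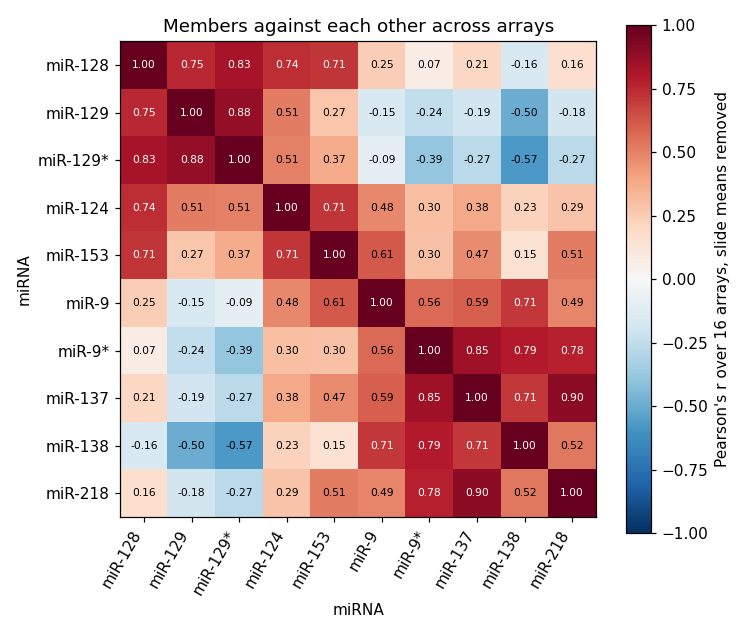
Pearson's r between each pair of the 10 miRNAs over the 16 arrays, after the mean of each slide was subtracted, with colour and number giving r. miR-128, miR-129 and miR-129* form a red block of 0.75 to 0.88 at the top left and miR-9, miR-9*, miR-137, miR-138 and miR-218 one of 0.49 to 0.90 at the bottom right, with 11 of the 15 values between these blocks below 0.

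Among the 151 other miRNAs well above background on every array, those most like miR-124 by this measure were miR-150 (r = 0.78), let-7e (0.77), miR-324-3p (0.77), miR-127 (0.76) and miR-409-5p (0.75). Those most like the mean of the 10 members were miR-300-3p (0.88), miR-341 (0.87), miR-598-3p (0.86), miR-384-5p (0.85) and miR-342-3p (0.85). Of these 151, miR-150, a miRNA of lymphocytes, was thus nearest to miR-124 across the 16 arrays. The next values were close to it, and r is a description only.

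The 2 probes of a member agreed closely. Their r over the 16 arrays was 0.95 (miR-218) to 0.99 (miR-137), and in the 6 comparisons their differences lay within 0.08 of each other. The widest gap was that of miR-124 in TBI+E33 against sham. The sign differed between probes for 1 member in each of 3 comparisons (miR-9 in TBI against naive, miR-218 in TBI+JM6 against sham and miR-153 in TBI+E33 against sham), all with differences near 0. For miR-128 in TBI+PMI against naive the probes gave −0.60 and −0.60, and with the other probe in place of the brighter one for every member the adjusted p was 0.051 by limma.

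**Figure D5:**
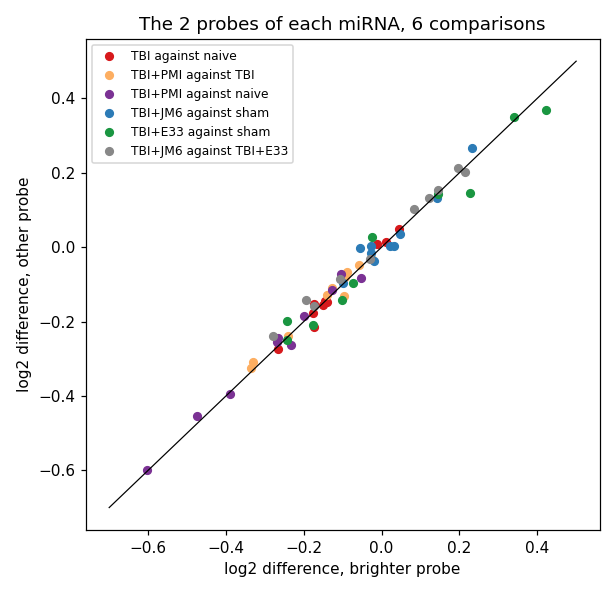
Log2 difference from the other probe (vertical) against that from the brighter probe (horizontal) for the 10 miRNAs in the 6 comparisons, 60 points in all, with the line of equal differences. The points lie along the line, and the widest gap is 0.08.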

How the data were processed

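RNA of 16 samples of whole hippocampus was measured on Agilent rat miRNA arrays of 7000 spots, 938 probes and 350 miRNAs. Scans were read by the authors in Feature Extraction 9.5.3.1 of Agilent, and the deposited background-subtracted signal is an intensity on a linear scale. They normalized in GeneSpring GX11. That scaling is not stated in the sources used here, so the deposited table of processed intensity (741 probes, lowest value 0.01) served as an alternative.

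The intensity was averaged over the spots of a probe, scaled on each array to the 75th percentile of 284 probes, those that exceeded background clearly on all 16 arrays (percentiles of 1945 to 4042), floored at −6.73 and taken to log2. The brightest probe stood for a miRNA. A miRNA was tested if 1 of the groups or both had it well above background on each array, with lmFit and eBayes of limma 3.58.1 in R 4.3.3 and Benjamini-Hochberg adjustment over all miRNAs tested at 0.05. TBI against naive was fitted on their 6 arrays as in the study's methods, and the others on the 8 arrays of their slide. The number of arrays limits the precision. The step was tested on simulated data with no shift or with shifts larger than any member's difference. That test does not show how often differences of the sizes seen here would be called.

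The text names the 10 members, the 5 miRNAs most like miR-124 or the members' mean, and miRNAs of the cell type lists that were called or undetected. The members and lists were chosen with earlier results of these data known. The position set as a block, the other probe and the crossed replicate numbers were added after seeing the data. Replicate numbers were not used to pair the samples, except in the replicate block.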

Additional observations from a re-analysis of the deposited data

Results flagged for a closer look

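The difference TBI+PMI minus naive on slide 1 and the difference TBI+E33 minus sham on slide 2 of miR-128 were −0.60 and 0.15. They differed by −0.75 ± 0.20 (SE), with an adjusted p of 0.049 by limma in the 16-array fit, where 27 of 226 miRNAs passed. This contrast was chosen after seeing the data, and it uses the same TBI+PMI arrays as the called difference from naive. The same contrast for miR-129* was −0.90 ± 0.29 and for miR-129 −0.73 ± 0.24 (SE), both with an adjusted p of 0.068. Compound, kind of control and slide change together in it, and on each slide the 2 groups lie in different position sets. With the position set of each slide as a block the value was −0.75 ± 0.32 (SE), with an adjusted p of 0.314 by limma and 0 of 226 miRNAs called. In the fits by slide with that block, TBI+PMI minus naive was −0.80 and TBI+E33 minus sham −0.056. Against TBI+JM6 minus sham the miR-128 value was −0.57 ± 0.19 (SE, adjusted p = 0.102).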

How the results depend on the processing

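A change of direction is counted where the difference under the chosen setting was larger than its standard error. Of 1128 alternative values of the members, 131 changed sign, 20 of them counted, and 0 members gained a call. The 1 call, miR-128 in TBI+PMI against naive, was kept under a stricter filter (adjusted p = 0.033), both fits of 16 arrays (0.014) and an intensity trend (0.038). Both fits of 16 arrays were the same model here and do not count as separate support. Members called fell to 0 with no scaling or no filter, with quantile normalization, normexp or the percentile over all probes, with the authors' table, the other probe or summed signals, with the replicate block or the position set as a block, and without each array (0 to 0). The cause was not tested.

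With no scaling between arrays the medians of the members became −0.25 (TBI against naive), 0.27 (TBI+PMI against TBI), 0.030 (TBI+PMI against naive), −0.22 (TBI+JM6 against sham), −0.55 (TBI+E33 against sham) and 0.30 (TBI+JM6 against TBI+E33), beside medians of all miRNAs of −0.15, 0.29, 0.16, −0.19, −0.44 and 0.26. Reversed there were miR-9* (0.24), miR-128 (0.046), miR-129 (0.14) and miR-129* (0.050) in TBI+PMI against TBI, miR-124 (0.011), miR-137 (0.014), miR-153 (0.046) and miR-218 (0.080) in TBI+PMI against naive, miR-124 (−0.27), miR-128 (−0.35), miR-129 (−0.16) and miR-129* (−0.077) in TBI+E33 against sham, and miR-124 (0.085) and miR-128 (0.10) in TBI+JM6 against TBI+E33.

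With summed signals the medians became 0.00034 (TBI against naive), −0.11 (TBI+PMI against naive) and −0.063 (TBI+JM6 against TBI+E33), and miR-124 in TBI against naive (0.0076) and miR-9* in TBI+JM6 against TBI+E33 (−0.0028) reversed. The authors' table gave no value for miR-9* and miR-129* here. Over the other members its medians were −0.093 in TBI+PMI against naive, −0.14 in TBI+JM6 against sham and −0.18 in TBI+E33 against sham. The percentile over all probes gave −0.088 in TBI+PMI against naive. Quantile normalization reversed miR-9* in TBI+JM6 against TBI+E33 (−0.052). The position set as a block reversed miR-138 in TBI+JM6 against sham (0.050) and miR-9* (0.013) and miR-128 (−0.056) in TBI+E33 against sham.

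Without 1 array the medians ran from −0.30 to 0.077 in TBI+PMI against TBI, where TBI+PMI replicate 1 left out gave 0.077, and from −0.42 to −0.060 in TBI+PMI against naive, where it gave −0.060. Over all miRNAs and alternatives the calls ran from 0 to 9 in TBI against naive, 0 to 3 in TBI+PMI against TBI, 0 to 35 in TBI+PMI against naive, 0 to 15 in TBI+JM6 against sham, 1 to 19 in TBI+E33 against sham and 0 to 2 in TBI+JM6 against TBI+E33. The deviations of same-numbered arrays had r of −0.27 to 0.08 in TBI against naive. In TBI+PMI against TBI r was 0.34 and 0.29, and in TBI+PMI against naive −0.46 and −0.50. In a group of 2 arrays the deviations mirror each other, so these values cannot decide whether the numbers pair the samples. The replicate block gave a median of −0.17 and a miR-128 difference of −0.59 (adjusted p = 0.088) in TBI+PMI against naive, and 0 members called in each comparison. Crossed sham numbers also gave 0.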
